A study of Mus musculus with 96 samples.

Results

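Amino acid transporters are membrane proteins that carry amino acids into and out of cells. Their transcripts were read in single cells of the mouse lung line C10, labelled as alveolar type II epithelial. The 9 genes described are Slc3a2, Slc7a5, Slc7a6, Slc7a11, Slc38a1, Slc38a2, Slc1a5, Slc1a4 and Slc7a1. They were chosen by name from the 40202 genes that every count file lists, and all 9 were found. The series holds 96 libraries of 1 cell each, 48 from untreated cells (control) and 48 from cells given RO-3306, which vendors offer as a CDK1 inhibitor (CDK1 drives entry into mitosis). The labelled treatment was 10 nM for 36 h. Both groups were grown in RPMI with serum and added L-glutamine, which supply amino acids that these proteins carry. The comparison asks how transcript levels in single cells differed with RO-3306. The labels name no culture, passage or clone, so each group counts as 1 sample and no difference has a replicate check.

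The heavy chain Slc3a2 (4F2hc) does not itself carry amino acids. It joins a light chain and holds it at the cell surface. Slc7a5 (LAT1) then exchanges large neutral amino acids such as leucine, Slc7a6 (y+LAT2) exchanges cationic for neutral amino acids, and Slc7a11 (xCT) takes up cystine in exchange for glutamate, which feeds glutathione synthesis. Slc38a1 and Slc38a2 (SNAT1 and SNAT2) are sodium-coupled importers of glutamine and other small neutral amino acids, Slc1a5 and Slc1a4 (ASCT2 and ASCT1) exchange neutral amino acids, and Slc7a1 (CAT1) carries arginine and lysine. Many of these genes are known targets of ATF4, the transcription factor of the amino acid response, and Slc7a11 is also a target of NRF2, the factor of the oxidative stress response.

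Promoter windows from RefSeq (GRCm38.p6) were found for 6 of the 9 genes, in 8 windows of 250 bases before and 30 bases after the annotated start. These were searched on both strands for TGATGNAA, the core of the element bound by ATF4 with a C/EBP partner, for TGACNNNGC, the core of the antioxidant response element, and for the E-box CACGTG. The motifs do not overlap each other in the windows shown. Slc7a11 and Slc1a4 are shown because theirs were the only windows of the 8 with TGATGNAA, and Slc38a2 because it is 1 of the 2 genes that fell with RO-3306. Each window reads 5′ to 3′ on the strand of its gene, and capitals mark the motif matches on either strand.
Slc7a11 promoter, chr3:50443584-50443863, minus strand: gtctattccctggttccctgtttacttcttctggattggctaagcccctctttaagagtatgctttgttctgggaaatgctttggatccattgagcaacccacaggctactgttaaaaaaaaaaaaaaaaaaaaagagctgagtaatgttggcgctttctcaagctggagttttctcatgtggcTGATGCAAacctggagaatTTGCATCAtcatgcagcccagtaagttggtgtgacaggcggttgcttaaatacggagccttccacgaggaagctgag
Slc1a4 promoter, chr11:20332684-20332963, minus strand: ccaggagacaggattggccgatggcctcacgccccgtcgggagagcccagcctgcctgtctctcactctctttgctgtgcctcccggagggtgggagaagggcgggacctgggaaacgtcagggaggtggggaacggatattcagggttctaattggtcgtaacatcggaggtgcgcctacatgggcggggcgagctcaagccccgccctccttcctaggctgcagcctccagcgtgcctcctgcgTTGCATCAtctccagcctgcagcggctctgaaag
Slc38a2 promoter, chr15:96699699-96699978, minus strand: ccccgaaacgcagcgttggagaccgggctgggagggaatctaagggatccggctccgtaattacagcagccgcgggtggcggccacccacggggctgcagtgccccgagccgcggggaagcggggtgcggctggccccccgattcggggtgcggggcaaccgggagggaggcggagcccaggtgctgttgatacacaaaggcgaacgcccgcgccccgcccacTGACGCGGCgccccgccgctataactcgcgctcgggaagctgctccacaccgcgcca
Positions are counted from the annotated start, the base before it being -1, and give the first base of a match. The Slc7a11 window held 2 matches of TGATGNAA, at -66 and -47, on opposite strands. The Slc1a4 window held 1, at -4. TGACNNNGC was held by 4 of the 8 windows, those of 3 genes: 1 match each in Slc38a2 at -27 and in a Slc7a1 window at -11, and 1 match that both overlapping windows of Slc7a6 share, at -1 and -68. Over all 32851 promoter windows of this length, 3.81% held TGATGNAA, 11.5% held TGACNNNGC and 6.79% held CACGTG, which none of the 8 windows did. A match describes the letters only. The ratios of the 3 genes, given further on, did not share a direction.

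A minimum of 50000 counts and 1000 genes left 29 control and 37 RO-3306 cells with median totals of 1753427 and 2234309 counts. The median cell had 5177 genes with a count in control and 6951 in RO-3306, so shares of cells with a count are also given at equal depth. Equal depth did not even this out: the medians were then 4588 and 5960.5 genes. A larger share of RO-3306 cells with a count, at either depth, is to be read beside this difference over all genes. The mitochondrial share of counts had medians of 3.40% and 4.42%, and 1 kept RO-3306 cell reached 56.0%. Of the 9 alveolar type II markers, Sftpa1, Sftpc, Sftpd, Slc34a2 and Napsa were listed at 0 in both groups, and 7 of the 9 lay below a mean of 5 counts per 1000000 (CPM). All 8 mesenchymal markers were above it, with a summed level of 5630 CPM in control cells (1329 to 11354 by cell) and 2531 CPM in treated ones (1297 to 13886). Whether these differences bear on the transporters was not tested.

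Group levels are counts summed over the kept cells as CPM of the group total. Ratios are log2 values of RO-3306 over control with 1 CPM added on each side, so that large changes of scarce transcripts come out too small. Limits given after a log2 ratio are those of the ratio without the added 1 CPM, so they are not centred on it. Sample titles hold a letter, A to D, of unstated meaning. A gene is said to rise or fall only where the ratio passed 2-fold and had 1 sign in all 4 lettered sets. The sets are not replicates. Intervals (95%, exact) of levels and ratios cover counting error only, and reads without molecular identifiers are not independent molecules. Those of shares of cells describe the drawing of cells within 1 group. Cells are not replicates, so whether such intervals overlap is no check of a difference between treatments.

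Of the 9 transporters, 2 fell and 0 rose: Slc7a5, the leucine exchanger, and Slc38a2, the glutamine importer. The rule was met downward by 6.43% and upward by 7.23% of the 9374 genes whose mean over the groups was 5 CPM or more, a floor that all 9 transporters passed. Without the demand on the sets, 24.2% of all genes were at least 2-fold lower and 12.2% at least 2-fold higher, against the same 2 and 0 transporters. On fold alone the transporters are thus close to the background. The 9 ratios had a median of -0.43 beside -0.22 for all genes, and 6 of the 9 lay below 0. Summed over the 9 genes, the level was 1275 CPM in control against 919 CPM with RO-3306, a ratio of 0.720 (0.713 to 0.727). By cell the summed level had a median of 834 CPM in control (66.4 to 3819) and 783 CPM in RO-3306 (0 to 1885), and 6 control cells lay above every RO-3306 cell.

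**Figure D1:**
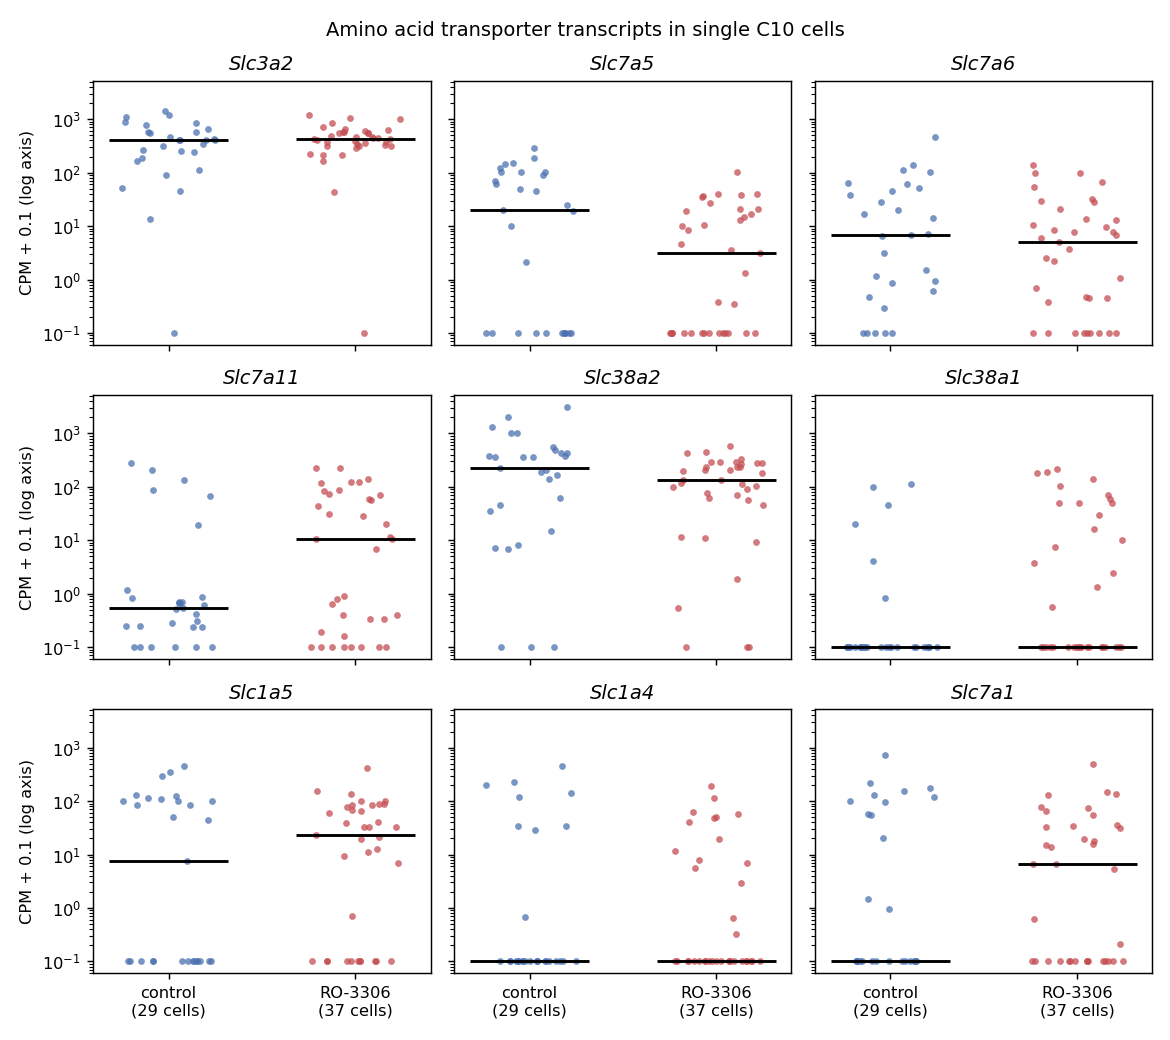
Level of each transporter in each kept cell, as CPM plus 0.1 on a log axis, for 29 control and 37 RO-3306 cells. Each point is 1 cell, points at the bottom are cells with no count, and the bar is the median over cells. Slc3a2 has medians of 410 and 425 CPM, Slc7a5 has 6 control cells above the highest RO-3306 cell, and Slc7a11 splits into cells under 2 CPM and cells from 10 CPM, with 1 RO-3306 cell between.

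Slc3a2, the heavy chain (GRCm39 chromosome 19, 8684246 to 8700733), was the most abundant transporter transcript and the one found in the most cells. It had a count in 28 of 29 control and 36 of 37 RO-3306 cells, and at equal depth in 24 of 25 and 33 of 34. Its level by cell ran from 0 through a median of 410 to 1398 CPM in control, and from 0 through 425 to 1170 CPM in RO-3306. The 2 distributions lay over each other, with 21 of 37 RO-3306 cells above the control median. In the group sums it was 507 and 527 CPM, a log2 ratio of 0.05 (0.03 to 0.07), and the lettered sets gave values from -0.71 to 0.89, so no direction was shared.

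Slc7a5 (chromosome 8, 122607885 to 122634425), the light chain that makes the leucine exchanger with Slc3a2, fell. By cell it ran from 0 through a median of 20.2 to 289 CPM in control and from 0 through 2.99 to 103 CPM with RO-3306. A count was present in 18 of 29 cells (62.1%, 42.3% to 79.3%) and 22 of 37 cells (59.5%, 42.1% to 75.2%). At equal depth these were 17 of 25 (46.5% to 85.1%) and 18 of 34 (35.1% to 70.2%), and the intervals overlap at both depths. Among the cells with a count the medians were 80.4 and 15.4 CPM. At least 50 CPM was reached by 11 control cells (37.9%, 20.7% to 57.7%) and by 1 RO-3306 cell (2.70%, 0.0684% to 14.2%), and 6 control cells exceeded every RO-3306 cell. Both groups still had cells without a count, so the distributions overlapped at the low end.

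In the group sums Slc7a5 was 52.5 CPM in control (50.8 to 54.3) and 14.5 CPM in RO-3306 (13.7 to 15.3), 3.62-fold lower. Its log2 ratio was -1.79, and -1.95, -1.88, -1.98 and -2.18 in sets A, B, C and D. These 4 values lie closer together than those of any of the other 8 genes. Under all 17 alternative settings it stayed below 0 and past 2-fold in size. The value in set D rests on control cell D9: without that cell the overall ratio was -1.58 but the highest of the set ratios was 2.13, and the call was lost.

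Slc7a6 (chromosome 8, 106894718 to 106925346), the light chain that trades cationic for neutral amino acids, lay at lower levels. It ran from 0 through a median of 6.83 to 464 CPM by cell in control and from 0 through 4.95 to 141 CPM with RO-3306, and was found in 24 of 29 and 28 of 37 cells, or 17 of 25 and 22 of 34 at equal depth. The group sums were 37.8 and 21.4 CPM, a log2 ratio of -0.79 (-0.90 to -0.73) that did not pass the rule, and set C gave 0.04. Control cell A7 held 31.6% of the control counts, and without it the ratio was -0.29. Without RO-3306 cell C5 it was -1.13, as a mean over cells -1.14 and with cells at equal depth -1.09, each of which met the rule.

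Slc7a11 (chromosome 3, 50319385 to 50403947), the cystine carrier, split the cells into low and high ones. In control, 6 cells were at 0, 17 lay above 0 and under 2 CPM, and only 6 had at least 10 CPM. The highest of the low cells was at 1.10 CPM and the lowest of the others at 18.98 CPM. In RO-3306, 8 cells were at 0, 9 lay above 0 and under 2 CPM, and 19 of 37 had at least 10 CPM. The cells from 10 CPM held 99.4% of the control counts and 99.6% of the RO-3306 counts. Its counts were fractional in 42 of 52 libraries with a count, which means reads shared with other sites of the genome, so a count in a cell is less telling here than its level.

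The share of cells with at least 10 CPM of Slc7a11 was 20.7% in control (8.0% to 39.7%) and 51.4% in RO-3306 (34.4% to 68.1%), and these intervals overlap. At equal depth 10 of 25 control and 20 of 34 RO-3306 cells had a whole count. The median cell was at 0.433 CPM in control against 10.4 CPM with RO-3306, and the highest were at 279 and 229 CPM. The group sums hardly differed, at 44.1 CPM (42.5 to 45.7) and 47.1 CPM (45.8 to 48.6), a log2 ratio of 0.10. A few control cells carried that sum: 2 cells held over 50% of the control counts, and without control cell B5 alone the ratio was 0.60. The set ratios ran from -2.57 in D to 6.43 in C, where the 6 control cells reached at most 0.506 CPM. Its sum thus has no settled direction.

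**Figure D2:**
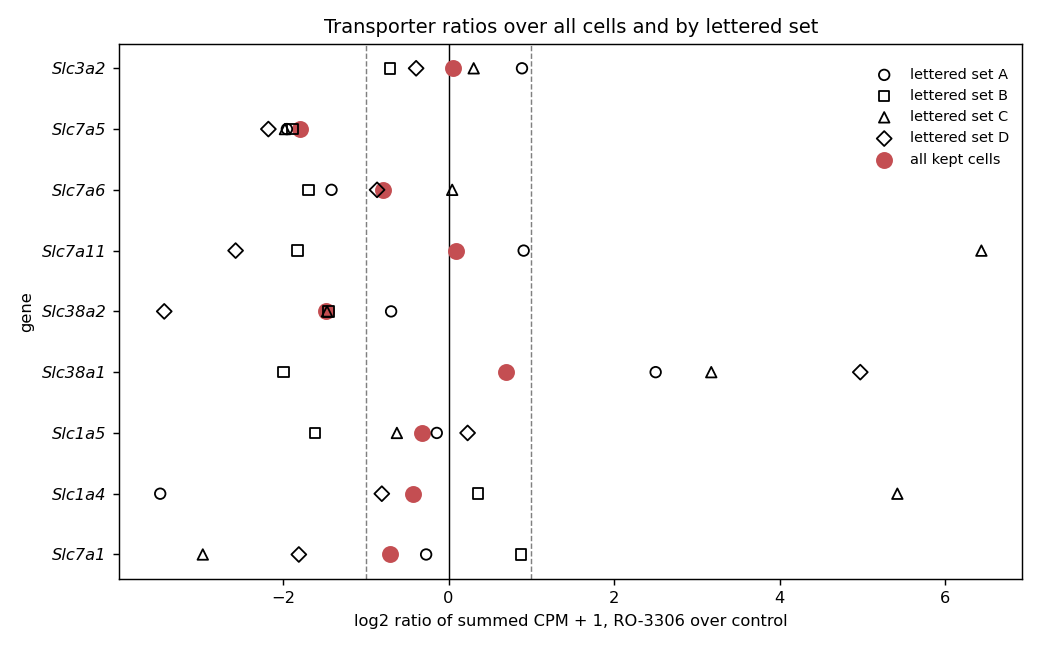
Log2 ratio of RO-3306 over control for each transporter, over all kept cells (filled) and within lettered sets A to D (open), with dashed lines at 2-fold. All 4 sets lie below 0 for Slc7a5 and Slc38a2 only. The widest spread is that of Slc7a11, from -2.57 to 6.43, and a ratio in a set where control was at or near 0, as for Slc38a1 in D, depends on the added 1 CPM.

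The heavy chain and its light chains were then set against each other per kb of mRNA, since levels of different genes compare only per length. The length was that of the longest coding transcript of each gene, and the effect of shorter ones was not tested. In the group sums Slc3a2 was at 180 CPM per kb in control and 187 in RO-3306. Slc7a5, Slc7a6 and Slc7a11 together were at 29.8 and 14.95 CPM per kb. The heavy chain thus exceeded its 3 light chains 6.05-fold in control and 12.5-fold in RO-3306. By cell it was the higher in 27 of 29 control and 36 of 37 RO-3306 cells. The remaining RO-3306 cell had neither, and the other two control cells had more light than heavy chain.

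In the group sums the makeup of the light chains differed as well. Slc7a5 made up 50.1% of their summed level per kb in control and 27.6% in RO-3306, Slc7a6 33.8% and 38.2%, and Slc7a11 16.03% and 34.2%. The Slc7a11 part has no settled direction, its level being higher with RO-3306 in sets A and C and lower in B and D. These shares were not computed by set. Slc7a5 was the leading light chain in 15 control and 9 RO-3306 cells, and Slc7a11 in 3 control and 14 RO-3306 cells. This tally has no minimum level. The 3 control cells led by Slc7a11, A9, B1 and C1, had only 0.411, 0.766 and 0.134 CPM of it, and RO-3306 cell C4 had 0.301 CPM. Such low values can be reads shared with other sites. Across cells at equal depth the summed light chains and Slc3a2 had a Pearson r of 0.27 over 25 control cells and 0.42 over 34 RO-3306 cells, as log2 levels from the same libraries. Slc7a7, Slc7a8 and Slc7a10, other known partners of Slc3a2, lay below 5 CPM.

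**Figure D3:**
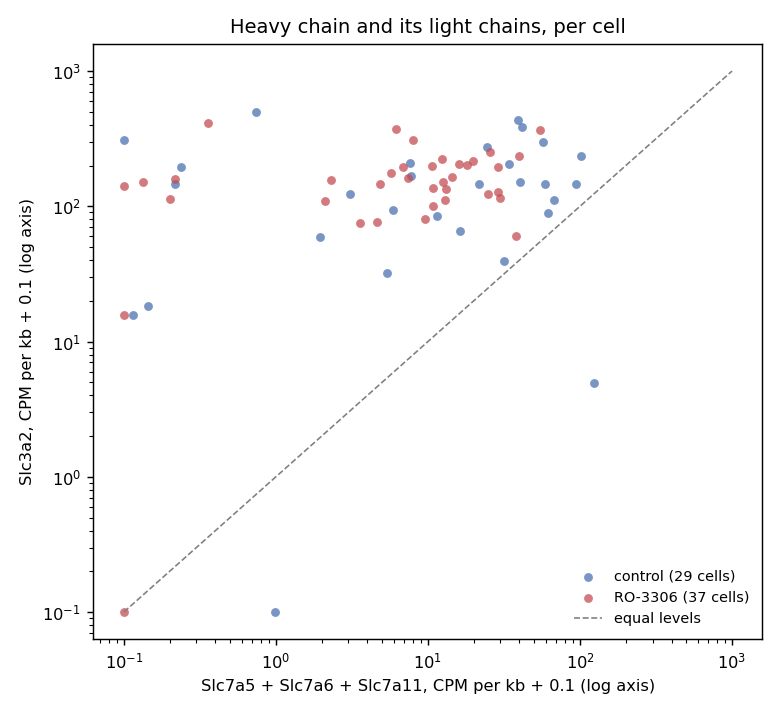
Slc3a2 against the sum of Slc7a5, Slc7a6 and Slc7a11 in each kept cell, both as CPM per kb of mRNA plus 0.1 on log axes. Blue points are 29 control and red points 37 RO-3306 cells. Points above the dashed line have more heavy than light chain, which holds for 27 control and 36 RO-3306 cells.

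Slc38a2 (chromosome 15, 96585267 to 96597609), the sodium-coupled glutamine importer SNAT2, fell as well. It was found in 26 of 29 and 34 of 37 cells, or 23 of 25 and 29 of 34 at equal depth. By cell it ran from 0 through a median of 227 to 3081 CPM in control and from 0 through 134 to 591 CPM in RO-3306. Here the difference lay in the upper range: 5 control cells exceeded every RO-3306 cell, while at least 50 CPM was reached by 20 of 29 control and 28 of 37 RO-3306 cells. In the group sums it was 446 CPM (441 to 452) and 159 CPM (157 to 162), 2.81-fold lower. The log2 ratio was -1.48, with -0.69, -1.45, -1.47 and -3.43 in sets A to D.

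Single cells weighed on the size of this fall. Control cell B4 held 29.4% of the control counts of Slc38a2, and without it the log2 ratio was -1.13. Without control cell C8 it was -1.34, but set C turned to 0.12 and the call was lost. Under 16 of 17 alternatives the ratio stayed past 2-fold, and with the median ratio of similarly long mRNAs subtracted it was -0.84.

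Slc38a1 (chromosome 15, 96469299 to 96541396), the other glutamine importer of this family and a neighbour of Slc38a2, was the least abundant transporter in control per kb. It had a count in 6 of 29 control cells (20.7%, 8.0% to 39.7%) and 18 of 37 RO-3306 cells (48.6%, 31.9% to 65.6%). At equal depth these were 5 of 25 (6.83% to 40.7%) and 15 of 34 (27.2% to 62.1%), and the intervals overlap. The highest cells were at 111 and 219 CPM, and 4 RO-3306 cells exceeded every control cell. The group sums were 18.2 and 29.9 CPM, a log2 ratio of 0.69 (0.62 to 0.82). Set B gave -1.99 and the other sets 2.50 to 4.97, with set D at 0 in control. Control cell B4 held 59.6% of the control counts, and the ratio was 1.76 without it. Without set B the ratio was 3.20. The rule was then met, but B was the only set of the other sign, so the demand on the sets could not fail.

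Slc1a5 (chromosome 7, 16515259 to 16532199), the glutamine exchanger ASCT2, was found in 15 of 29 control cells (51.7%, 32.5% to 70.6%) and 26 of 37 RO-3306 cells (70.3%, 53.0% to 84.1%). At equal depth these were 12 of 25 (27.8% to 68.7%) and 23 of 34 (49.5% to 82.6%), and the intervals overlap at both depths. Its median by cell was 7.41 CPM in control (0 to 455) and 22.9 CPM in RO-3306 (0 to 424). Among cells with a count the order was the other way, with medians of 102 and 50.4 CPM. The group sums were 64.7 and 51.8 CPM, a log2 ratio of -0.32 (-0.38 to -0.26), with sets from -1.61 to 0.23. The sum showed no shared direction.

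Slc1a4 (chromosome 11, 20252180 to 20282713), the serine and alanine exchanger ASCT1, was found in few cells, 9 of 29 and 15 of 37, or 6 of 25 and 13 of 34 at equal depth. The median cell of both groups was at 0, and the highest cells were at 451 and 195 CPM. The group sums were 36.99 and 27.2 CPM, a log2 ratio of -0.43 with set values from -3.48 to 5.42. Without control cell A7 the ratio was 0.06 and without RO-3306 cell C5 it was -1.08, so its sign and size rest on single cells.

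Slc7a1 (chromosome 5, 148264220 to 148336714), the arginine and lysine carrier CAT1, was found in 13 of 29 control and 22 of 37 RO-3306 cells, or 9 of 25 and 20 of 34 at equal depth. Its level ran from 0 through a median of 0 to 740 CPM in control and from 0 through 6.45 to 496 CPM in RO-3306. Among cells with a count the medians were 100.1 and 32.2 CPM. The group sums were 67.2 and 40.8 CPM, a log2 ratio of -0.71 (-0.78 to -0.66) with set values from -2.97 to 0.88. Leaving out control cell C8 moved it to -0.26, and leaving out RO-3306 cell B10 moved it to -1.11, where it met the rule.

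Ordered per kb, control levels were 180 CPM per kb for Slc3a2, 95.8 for Slc38a2, 23.4 for Slc1a5, 14.9 for Slc7a5, 10.1 for Slc7a6, 9.42 for Slc1a4, 9.36 for Slc7a1, 4.78 for Slc7a11 and 2.50 for Slc38a1. In RO-3306 the first 3 kept their places, at 187, 34.1 and 18.7 CPM per kb, and Slc7a5 was eighth with 4.12. The lowest cell was at 0 for all 9 genes, so neighbours in this order overlap over cells. Of the summed transporter CPM, Slc3a2 made up 39.8% in control and 57.3% in RO-3306, and Slc38a2 35.01% and 17.3%.

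The ratio moved with mRNA length across all genes. In 20 bins of length, the median log2 ratio ran from 0.27 for the shortest mRNAs to -0.89 for the longest. Slc7a11, with 9223 nt, lay 0.99 above the genes of like length and Slc38a1, with 7266 nt, 1.55 above. Slc7a5 lay 1.45 below its like (-1.45) and Slc38a2 0.84 below (-0.84). The remaining 5 lay between -0.32 and 0.32 of theirs. With these medians subtracted the transporters' median was 0.055 and their summed value 0.011, and Slc7a5 alone passed the rule. The part of length in the ratios was not tested further.

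**Figure D4:**
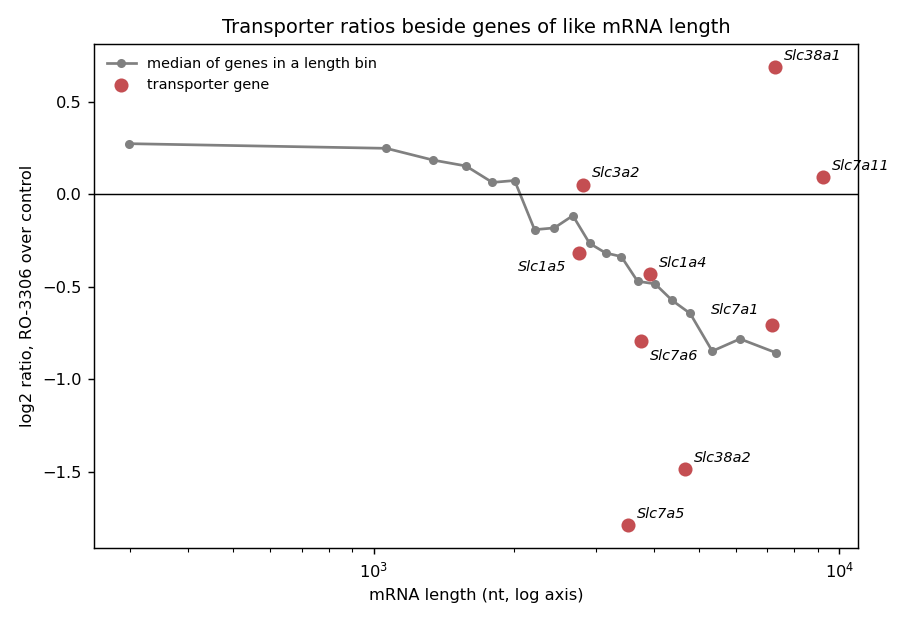
Log2 ratio of RO-3306 over control against mRNA length on a log axis. Red points are the 9 transporters and grey points the medians of all genes in 19 of the 20 length bins, placed at the middle of each bin, the longest bin being left off. Slc7a5 and Slc38a2 lie below the grey line and Slc38a1 and Slc7a11 well above it.

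Cells differed in how many of the 9 transcripts they held. The median cell held 6 of them in both groups, with a range of 2 to 9 in control and 0 to 9 in RO-3306. At equal depth the medians were 5 and 6, while the median cell had 4588 genes of any kind in control and 5960.5 in RO-3306. As a share of all genes found in a cell, the 9 had medians of 0.0990% and 0.0922%. The step from 5 to 6 is thus not particular to the transporters. The RO-3306 cell without any of the 9, cell C11, had 740432 counts but only 2159 genes, the second fewest of all kept cells, after control cell C3 with 2109 genes and 2 transporters. All 9 were found in 1 control and 4 RO-3306 cells.

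Pairs of transporters varied together only weakly. Over the 36 pairs, the highest mean of the within-group correlations of log2 levels was that of Slc7a5 and Slc3a2, with a Pearson r of 0.53 over 25 control and 0.26 over 34 RO-3306 cells at equal depth. Slc7a5 and Slc7a1 followed with 0.41 and 0.36. Compared with all 3702 genes that reached 50 CPM, the ones most like Slc3a2 were Ostc, with r of 0.83 and 0.75, and Krtcap2, with 0.71 and 0.84. For the other transcripts found in enough cells the nearest genes reached mean r of 0.48 to 0.60: Fbxo7 and Wls for Slc7a11, Larp4 and Ngdn for Slc7a5, Sart1 and Spred1 for Slc1a5, Emg1 and Pcbp2 for Slc38a2, Wdr61 and Tmem230 for Slc7a1, and Rnmt and Jagn1 for Slc7a6. In counts this sparse such values describe these cells only, and all genes of a cell share its library. The named genes were also picked as the highest of 3702, and how high such a pick comes among unrelated genes was not tested.

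Other amino acid transporters of the cell surface were scarce. Of 30 listed, 27 lay below 5 CPM, and none of the other 3 had 1 sign in all sets. Among lysosomal carriers 6 of 9 reached 5 CPM, with a median log2 ratio of -1.03. Of these, 3 were at least 2-fold lower without 1 sign in all sets (Slc15a4 at -2.98, Slc36a4 at -2.23 and Slc38a9 at -1.71, named after their values were seen), 0 fell by the rule and 1 rose: Ctns, which exports cystine from lysosomes, went from 2.29 CPM and 1 of 29 cells to 19.1 CPM and 13 of 37 cells. The riser was 16.7% of the 6 genes, beside 7.23% of all genes, and 0 fell beside 6.43%. The 3 lower ratios rest on few cells: Slc36a4 had counts in 1 control and 1 RO-3306 cell, Slc38a9 in 4 and 8, and Slc15a4 in 6 and 7. Ctns was below 5 CPM in control, and the 3 lower genes were below it in RO-3306. Each thus passed the floor through 1 group and could count in 1 direction only.

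Enzymes that load amino acids onto tRNA, the cytosolic aminoacyl-tRNA synthetases, had the lowest median of the related lists. Of 19 matched, 8 fell (42.1%, beside 6.43% of all genes) and 1 rose (5.26%, beside 7.23%). Their median log2 ratio was -1.12, or -0.74 with the median of similarly long mRNAs subtracted. The lowest were Aars, for alanine, from 209 to 55.1 CPM (-1.90), Vars, for valine, from 143 to 39.6 CPM (-1.83), Lars, for leucine, from 274 to 84.4 CPM (-1.69), and Iars, for isoleucine, from 122 to 41.4 CPM (-1.53). These are the symbols in the files, and the enzyme for asparagine was not matched.

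Genes of ATF4 and the amino acid response did not share a direction. Of 21 at or above 5 CPM, 3 rose (14.3%, beside 7.23% of all genes), 1 fell (4.76%, beside 6.43%), and the median was -0.08. Ddit3, the stress factor CHOP, rose from 60.9 to 566 CPM (3.19), Atf3, a stress-induced partner of ATF4, from 1.41 to 29.7 CPM, and Gdf15, a stress cytokine, from 0.0757 to 14.3 CPM. Atf3 and Gdf15 were below 5 CPM in control, so they passed the floor through RO-3306 only and could count only as risers. Atf5, a factor related to ATF4, fell from 32.1 to 6.24 CPM (-2.19). Atf4 itself, named after its value was seen, was at 1104 and 1046 CPM. Of 7 amino acid stress kinases and MYC genes, 0 rose and 0 fell, beside 7.23% and 6.43% of all genes.

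The list of cystine use and glutathione synthesis, which also holds NRF2, its inhibitor Keap1 and other NRF2 targets that use no cystine, had the highest median of these lists. Of its 14 genes, 3 rose (21.4%, beside 7.23% of all genes) and 0 fell (beside 6.43%), with a median of 0.81. Hmox1, which degrades heme and is an NRF2 target, rose from 22.4 to 125 CPM (2.43), Srxn1, which repairs peroxiredoxins, from 108 to 257 CPM (1.24), and Gsr, which regenerates glutathione, from 91.4 to 188 CPM (1.03). Gpx4, the lipid peroxidase that uses glutathione, was at 1226 and 2163 CPM (0.82), short of 2-fold.

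The 11 genes of glutamine, asparagine and branched-chain metabolism had a median of -0.73. Asns, which makes asparagine from aspartate with nitrogen taken from glutamine, was at 538 and 417 CPM (-0.37). Bcat1, which starts the breakdown of branched-chain amino acids, was at 352 and 199 CPM (-0.82), and Got1, the cytosolic aspartate transaminase, at 77.6 and 130 CPM (0.73). The list of amino acid sensing upstream of mTORC1, which also holds parts of mTORC1 itself, had 12 genes of at least 5 CPM. Castor1, the arginine sensor, rose from 0.0151 CPM, a single cell, to 14.9 CPM with counts in 15 of 37 cells. Rptor, a subunit of mTORC1, fell from 15.3 to 5.397 CPM (-1.35). Each is 8.33% of the 12 genes, close to the 7.23% of all genes that rose and 6.43% that fell. Castor1 passed the floor of 5 CPM through RO-3306 only and could count only as a riser.

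**Figure D5:**
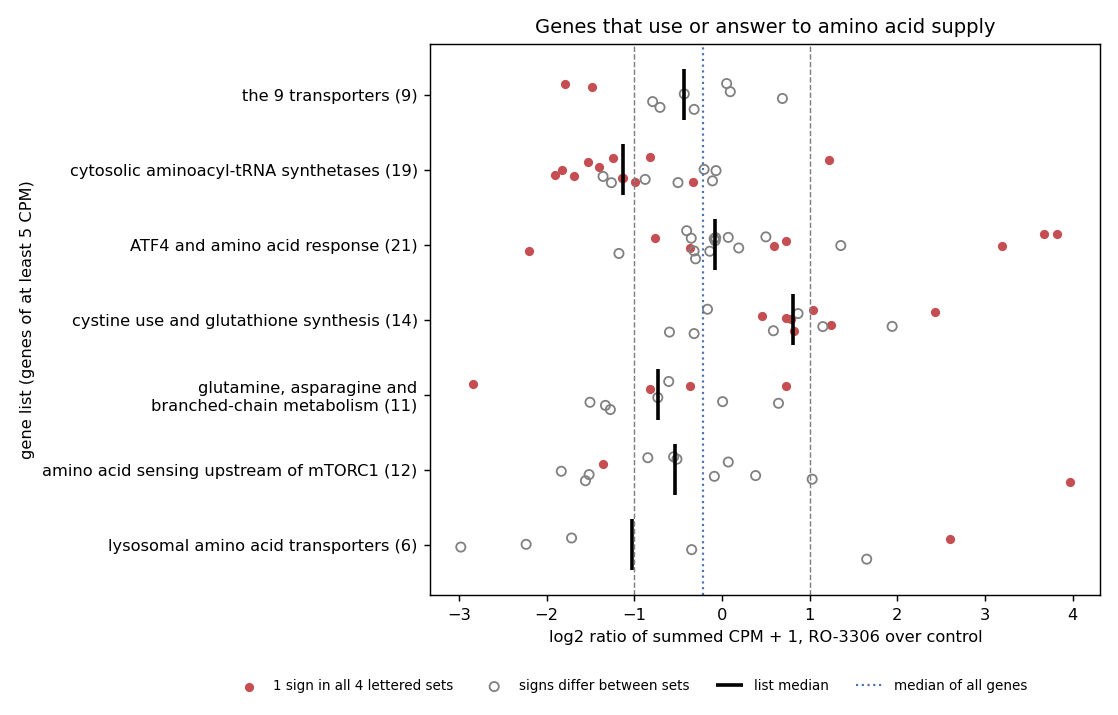
Log2 ratio of RO-3306 over control for each gene of at least 5 CPM in the 9 transporters and 6 related lists, with the number of genes in brackets. Filled points have 1 sign in all 4 lettered sets, bars are list medians, the dotted line is the median of all genes (-0.22) and dashed lines mark 2-fold. The synthetases have a median of -1.12, the cystine and glutathione genes 0.81 and the transporters -0.43.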

How the data were processed

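Libraries of single C10 cells were made with SMART-seq v4 and sequenced as single reads, per the labels' protocols. The submitters' processing notes list FastQC, STAR and featureCounts. The deposited expected counts per gene were made by the authors with featureCounts 2.0.3 on GRCm39 RefSeq genes, per the file headers: the counted feature was the full span of a gene with its introns, and reads placed at several sites were divided among them. No strand option is given there. Each title was matched to its treatment label.

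The 9 members, the gene lists and the rules were chosen with earlier results of these data known. From the counts, group sums, CPM and log2 ratios with a pseudocount of 1 CPM were computed for all 40202 genes, and list medians used genes of at least 5 CPM. No p-value was computed, since each group is 1 sample. Poisson, Clopper-Pearson and conditional binomial intervals are at the 95% level. For intervals, thinning and scaling factors, fractional counts were rounded. Equal depth means each cell thinned to 639000 reads, which left out 4 control and 3 RO-3306 cells. No doublet caller was run, since 1 cell was sorted per library, and no 2 kept libraries held identical values. Related genes named are the up to 4 of each list with the largest log2 ratios among those with 1 sign in all sets. One gene of these lists is not reported here. Genes alike to a member are the 2 with the highest mean within-group r. mRNA lengths were those of the longest protein-coding transcript in GENCODE M21, or of the longest of any kind where none was coding. They were matched by symbol for 97.2% of the 9374 genes. Promoters came from RefSeq. Gene spans are GRCm39 positions and promoters GRCm38.p6 positions. The steps were tested on simulated data whose cells varied around a shared profile. The rule was thus not tested under the spread between cells seen here. Alternatives were edgeR 4.0.16 TMM and DESeq2 1.42.0 size factors (R 4.3.3), other pseudocounts and cell filters, means over cells, thinned sums, mRNA length, and each set and cell left out. Python 3.11.15, numpy 2.4.6, pandas 2.3.3 and scipy 1.17.1 were used.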

Additional observations from a re-analysis of the deposited data

Results flagged for a closer look

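The libraries left out for low counts or few genes, 19 control and 11 RO-3306, were read for the same 9 genes. In their summed counts, 4 transporters and the sum of all 9 were higher in the left-out RO-3306 libraries than in the left-out control libraries. Slc3a2 was at 68.4 CPM against 17.6 CPM, Slc38a1 at 72.3 CPM against 0 counts in control, Slc38a2 at 182 CPM against 8.79 CPM and Slc7a1 at 89.0 CPM against 5.86 CPM. The 9 genes together were at 412 CPM against 33.7 CPM. Single libraries carried this: RO-3306 D10, with 63235 counts and 743 genes, held 59 of 79.5 Slc3a2 counts, all 84 Slc38a1 counts and 205.5 of 211.5 Slc38a2 counts, and D5 held all 103.5 Slc7a1 counts. The control value for Slc38a1 allows up to 8.79 CPM by 3 counts of the 341166 counts in those libraries.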

How the results depend on the processing

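Scaling moved all ratios up: TMM factors raised the median of all genes by 0.20 and DESeq2 size factors by 0.23, and the transporters' median became -0.23 and -0.20 and their summed ratio -0.26 and -0.24. Without mitochondrial genes in the totals the summed ratio was -0.45. As means over cells the median was -0.75 and the sum -0.54, and with cells thinned first -0.77 and -0.64, and under both 3 genes fell, Slc7a6 being the third. With the median of similarly long mRNAs subtracted, the transporters' median was 0.055, the sum 0.011 and 1 gene fell. With each lettered set or cell left out, the median ran from -1.20 to -0.26, the sum from -0.74 to -0.26, the genes that rose from 0 to 1 and those that fell from 1 to 3. Where a set was left out, the rule asked for 1 sign in the remaining sets only. Of 66 cells left out in turn, 62 left the calls as they were, and the exceptions are control C8 and D9 and RO-3306 B10 and C5. Other pseudocounts and cell filters, and leaving out cells above 20% mitochondrial share, kept the median within its counting interval and both calls. Of 224 recomputed values over 13 results, 104 stayed within their limits, 120 moved beyond counting error and 0 of the called values changed sign. Values not called did change sign under some settings. These were the transporters' median and sum with length subtracted, and the ratios of Slc7a11, Slc3a2, Slc1a4 and Slc7a1. The first 3 of these genes kept their sign in 14 of 17 alternatives each, and Slc7a1 in 16. No paired analysis was possible because no result comes from a test and title numbers do not mark shared cultures. With thinning, the cells with Slc7a11 went from 23 of 29 to 10 of 25 in control and from 29 of 37 to 20 of 34 in RO-3306, fractional counts being rounded first.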
